A study of Rattus norvegicus with 6 samples.

Results

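The secreted antagonists of WNT signalling, a pair of WNT response genes and the ligand gene Wnt5a were followed in bulk RNA of rat tail intervertebral discs. The 10 genes were Wif1, Frzb, Sfrp1, Sfrp2, Sfrp4, Dkk1, Dkk3, Axin2, Lef1 and Wnt5a. They were taken by gene name from the deposited count table, in which each name matched a single row, and they were 10 of its 30562 genes. All 10 had enough counts to be tested.

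The study treated punctured discs of the rat tail with AF-PTK@LEV@SPP1 and measured disc RNA in 3 libraries of this group and 3 libraries of a control group. The rats were, by the study's methods, 12-week-old male Sprague-Dawley animals (wild type in the records) whose discs had been punctured with a needle, in both groups. In the treated group the discs were injected with 10 μL of AF-PTK@LEV@SPP1 (siRNA at 1 mg/kg), from 24 h after surgery and over 8 weeks, and control discs received PBS. AF-PTK@LEV@SPP1 is a liposome fused with detoxified outer membrane vesicles of bacteria. It carries an siRNA against Spp1, described in the methods as designed for the mouse gene, and a peptide with affinity for the annulus fibrosus (AF), joined by a thioketal linker that reactive oxygen species cut. The sample records differ from this description, since they name an untreated control, a treatment of 14 days, and macrophages sorted from mouse discs by F4/80 and CD11b. Each library stood, by the methods, for a separate animal.

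The control libraries held 17942989, 16565291 and 17489851 counts, and those labelled AF-PTK@LEV@SPP1, the labelled libraries in what follows, held 17074981, 15560728 and 17855184. Levels are given as normalized CPM, counts scaled to the same library total and adjusted by trimmed means of M-values (TMM) in edgeR. A gene with 3 counts, taken as the smallest measured level, stood at 0.154 to 0.193 normalized CPM, a limit that covers counting error alone. Spp1, which the siRNA was made to silence, stood at 8114, 4408 and 4414 normalized CPM in control replicates 1, 2 and 3, and at 8047, 6893 and 8451 in the labelled libraries. It was thus not lower where the label says it was targeted (log2 fold change 0.31 ± 0.37 SE, adjusted p = 0.628), and every direction given here is relative to these labels. Without control replicates 2 and 3 the log2 fold change of Spp1 was -0.066 (adjusted p = 0.945, over a range from 0.290 to 0.945 in all alternatives).

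Control replicates 2 and 3 were close to identical. Over the 14393 genes for which the pair held 20 counts or more, their counts varied 1.33 times as much as counting noise, against 51.3 to 107 times for the 5 other pairs within a group. This pair was counted as 1 sample, so the control group had n = 2 distinct samples and the treated group n = 3. The macrophage label of the records was also set against marker genes. Col1a1, a collagen gene of connective tissue cells, had 31887 to 64018 normalized CPM across the libraries, and Lyz2, a myeloid gene, had 271 to 1831. The libraries are described here as disc tissue.

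WNT proteins are secreted ligands that bind Frizzled receptors with the co-receptors LRP5 and LRP6, which stabilizes β-catenin and lets it act with TCF/LEF factors on target genes. Secreted antagonists limit this step either by binding the ligand, as the sFRP proteins and WIF1 do, or by binding the co-receptors, as DKK1 does. The pathway is known for its part in the growth and maintenance of disc, cartilage and bone, where too much as well as too little activity disturbs the tissue.

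Among the 10 genes, Sfrp2, Sfrp4 and Wnt5a were lower in the labelled libraries, and the other 7 were not called in either direction. A call required an adjusted p (Benjamini-Hochberg) under 0.05 in edgeR's quasi-likelihood test over all 15537 genes tested, with the near-identical pair summed. The 3 lower genes, 30.0% of the 10, stand beside a background of 400 lower genes, or 2.57% of those tested. Of the genes tested, 575 were called in either direction (3.70%), and 175 were called higher (1.13%). None of the 10 genes was called higher by edgeR, 0 of 10 had an unadjusted p under 0.05 in that direction, and DESeq2 and limma-voom also called 0 higher. Over all 15537 genes, 1926 had such a p in the higher direction, and DESeq2 called 1132 higher and limma-voom 139. The groups did not overlap for 4 of the 10 genes, which is near the share of all tested genes (45.8%) and is no result about these genes.

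**Figure D1:**
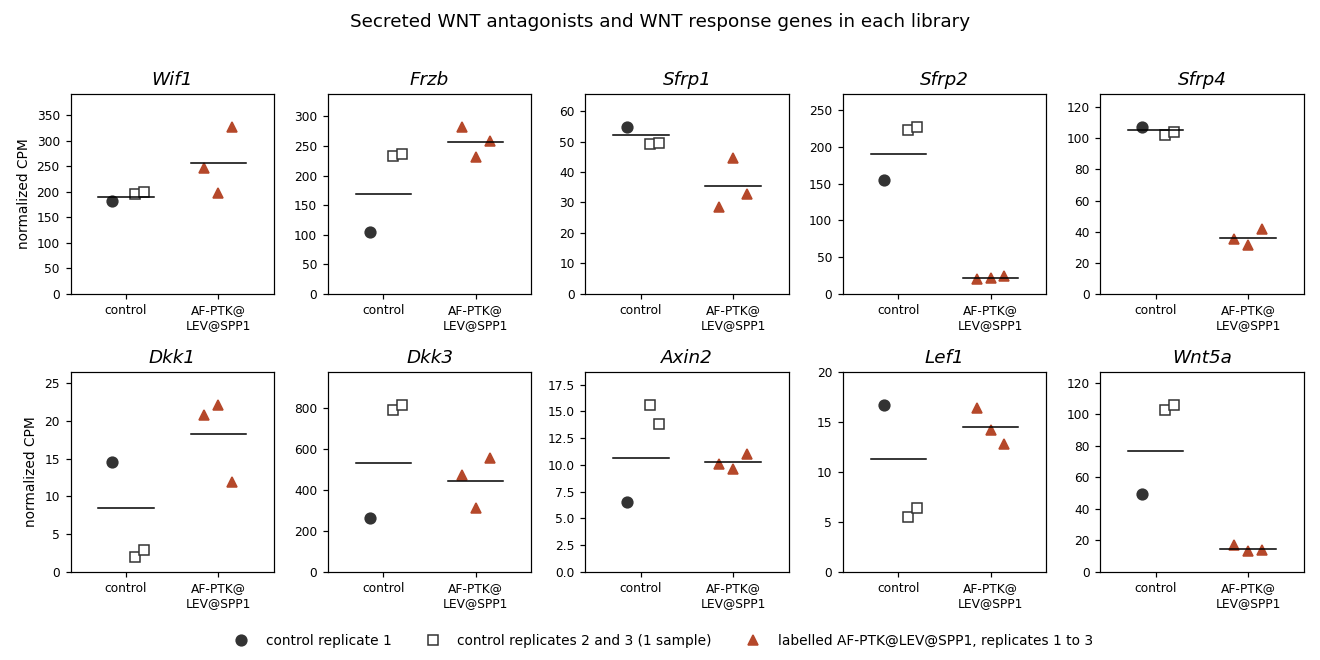
Normalized CPM (vertical axes, each starting at 0) of the 10 genes, with circles for control replicate 1, open squares for control replicates 2 and 3 counted as 1 sample, triangles for the labelled libraries, and lines for means over distinct samples. Sfrp1, Sfrp2, Sfrp4 and Wnt5a lie below every control library in all 3 labelled libraries, and the control samples differ by more than 2-fold for Frzb, Dkk1, Dkk3, Axin2, Lef1 and Wnt5a.

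Sfrp2 encodes a secreted frizzled-related protein, which binds WNT ligands through a domain like that of their receptors. It had 155, 224 and 227 normalized CPM in control replicates 1, 2 and 3, and 19.4, 21.1 and 24.8 in the labelled libraries. The 3 labelled libraries lay close together and far below all control libraries. The mean was 190 ± 49.6 (SD, n = 2) in control and 21.8 ± 2.78 (SD, n = 3) in the labelled group, an 8.75-fold lower level. The log2 fold change was -3.14 ± 0.21 SE (95% interval -3.67 to -2.61, adjusted p = 0.0119), lower in 3 of 3 labelled libraries. In bulk tissue, fewer cells of a type and less RNA per cell cannot be told apart. Sfrp2 (ENSRNOG00000009465) lies on chromosome 2 from 169089517 to 169097063 on the plus strand in the coordinates of the table, whose rat build is not given in the sources used here.

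Sfrp4 encodes another secreted frizzled-related protein, known from bone as a WNT antagonist. Its level was 107, 102 and 104 normalized CPM in the control libraries, and 35.0, 31.6 and 41.5 in the labelled libraries. Control replicate 1 lay close to the control pair here, and the groups did not overlap. The means were 105 ± 2.83 (SD, n = 2) and 36.0 ± 5.01 (SD, n = 3), a 2.92-fold lower level, with a log2 fold change of -1.55 ± 0.14 SE (95% interval -1.91 to -1.19, adjusted p = 0.0196). The gene (ENSRNOG00000054957) lies on chromosome 17 from 45234097 to 45330736 on the minus strand. Its span overlaps Nme8 on the other strand, which had 20 counts over the 6 libraries against 7236 for Sfrp4, and the counting rule for strand is not given in the sources used here.

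Sfrp1, a further secreted frizzled-related gene, pointed the same way with a smaller difference. It had 54.7, 49.2 and 49.5 normalized CPM in control and 28.5, 44.5 and 32.9 in the labelled libraries. The groups did not overlap, but labelled replicate 2 came close to the control libraries. The log2 fold change of -0.57 ± 0.21 SE had an adjusted p of 0.174 and was not called, with a 95% interval of -1.09 to -0.05. Sfrp5, outside the 10 genes and named after its values were seen, lay the other way. It had 16.3, 4.56 and 4.82 normalized CPM in control and 44.6, 41.6 and 22.8 in the labelled libraries, without overlap, and was not called (log2 fold change 1.80 ± 0.61 SE, adjusted p = 0.154).

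Frzb encodes a frizzled-related protein first known from cartilage, and Wif1 a WNT-binding protein of a separate family. Frzb had 104, 233 and 237 normalized CPM in control and 282, 231 and 259 in the labelled libraries. Only control replicate 1 was low, and the near-identical control pair lay within the range of the labelled libraries. Wif1 had 181, 196 and 199 normalized CPM in control and 246, 197 and 326 in the labelled libraries. Labelled replicate 2 was at the level of control replicates 2 and 3, so the groups overlapped. Their log2 fold changes were 0.59 ± 0.36 SE for Frzb (adjusted p = 0.357) and 0.43 ± 0.24 SE for Wif1 (adjusted p = 0.318). The 95% intervals, -0.33 to 1.51 and -0.18 to 1.04, both include 0. For Frzb the value was 1.30 without the control pair (adjusted p = 0.127) and 0.11 without control replicate 1 (adjusted p = 0.766), the lowest and highest adjusted p of all alternatives. The 5 genes for proteins that bind WNT thus included 2 called lower and 3 not called.

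Dkk1 encodes an antagonist that binds LRP5 and LRP6, and its product acts together with Kremen receptors. Its counts were 284, 31 and 48 in control replicates 1, 2 and 3, and 354, 366 and 208 in the labelled libraries. In normalized CPM these were 14.6, 1.99 and 2.93 against 20.8, 22.1 and 11.8. Control replicate 1 stood with the labelled libraries, above labelled replicate 3, and the other control sample was 5.92-fold lower. The difference, at a log2 fold change of 1.11 ± 0.76 SE, was not called (95% interval -0.81 to 3.02, adjusted p = 0.404) and was smaller than the spread within the control group. Without control replicate 1 the log2 fold change was 2.86 (adjusted p = 0.0792), and without the control pair it was 0.31 (adjusted p = 0.736), over a range of adjusted p from 0.0792 to 0.736 in all alternatives.

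Dkk3 encodes a divergent member of the DKK family whose place in WNT signalling is less settled. It had 264, 790 and 811 normalized CPM in control and 471, 311 and 553 in the labelled libraries. Every labelled library lay between control replicate 1 and the control pair. Dkk3 had a log2 fold change of -0.27 ± 0.51 SE (95% interval -1.57 to 1.03, adjusted p = 0.771). Its sign turned without the control pair, to 0.74 (adjusted p = 0.428, over a range from 0.262 to 0.978 in all alternatives).

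Axin2 and Lef1 are read as genes of the WNT response. Axin2, a scaffold of the β-catenin destruction complex that is itself switched on by β-catenin, had 6.57, 15.6 and 13.8 normalized CPM in control and 10.1, 9.64 and 11.0 in the labelled libraries. The labelled libraries lay close together, between control replicate 1 and the control pair. The means were 10.6 ± 5.75 (SD, n = 2) and 10.3 ± 0.715 (SD, n = 3). The log2 fold change was -0.07 ± 0.36 SE (95% interval -0.96 to 0.83, adjusted p = 0.925), and it was 0.64 without the control pair (adjusted p = 0.304, over a range from 0.222 to 0.993 in all alternatives).

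Lef1, a DNA-binding partner of β-catenin, had 16.7, 5.46 and 6.41 normalized CPM in control and 16.4, 14.2 and 12.8 in the labelled libraries. Control replicate 1 was the highest of all 6 libraries and the control pair the lowest, an order opposite to that of Axin2 within the control group. Lef1 had a log2 fold change of 0.36 ± 0.44 SE (95% interval -0.76 to 1.47, adjusted p = 0.645), which was -0.21 without the control pair (adjusted p = 0.652, over a range from 0.0927 to 0.810 in all alternatives). At this spread the intervals of both response genes hold differences in either direction.

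Wnt5a, the ligand of the set, is known mostly for signalling that does not run through β-catenin, with ROR2 as a receptor. It had 49.5, 103 and 106 normalized CPM in control and 17.0, 13.1 and 14.0 in the labelled libraries. The labelled libraries were alike and below every control library, and control replicate 1 lay between them and the control pair. The means were 76.9 ± 38.7 (SD, n = 2) and 14.7 ± 2.04 (SD, n = 3), a 5.24-fold lower level, with a log2 fold change of -2.40 ± 0.34 SE (95% interval -3.25 to -1.55, adjusted p = 0.0353). Wnt5a (ENSRNOG00000015618) lies on chromosome 16 from 3697032 to 3718234 on the plus strand.

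The 3 called genes were called by edgeR, DESeq2 and limma-voom and under each normalization and filter tried. In a two-sided exact permutation test over 2 against 3 distinct samples each had p = 0.1, the smallest value this design can give. Their calls did not hold when some single samples were left out. Without labelled replicate 1, edgeR called 113 of all genes, and of the 10 only Sfrp2. Its adjusted p was 0.0361, against 0.0518 for Sfrp4 and 0.0705 for Wnt5a. Without labelled replicate 2 (0.0691 to 0.105 for the 3 genes) or 3 (0.130 to 0.162) it called 0 of the 10 and 0 of all genes. These 2 losses are thus not particular to the 10 genes. In these 2 fits 5 and 3 of the 10 had an unadjusted p under 0.05, beside 3109 and 2699 of all genes. Without the control pair, which left a lone control sample, neither these calls nor most others held. The log2 fold changes were then -2.84 for Sfrp2, -1.58 for Sfrp4 and -1.76 for Wnt5a. No other tool was run in these fits. Across all alternatives the adjusted p ran from 4.71e-33 to 0.130 for Sfrp2, from 5.25e-16 to 0.130 for Sfrp4 and from 3.22e-08 to 0.162 for Wnt5a. Their log2 fold changes stayed between -3.39 and -2.84 for Sfrp2, between -1.66 and -1.46 for Sfrp4 and between -2.84 and -1.76 for Wnt5a.

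**Figure D2:**
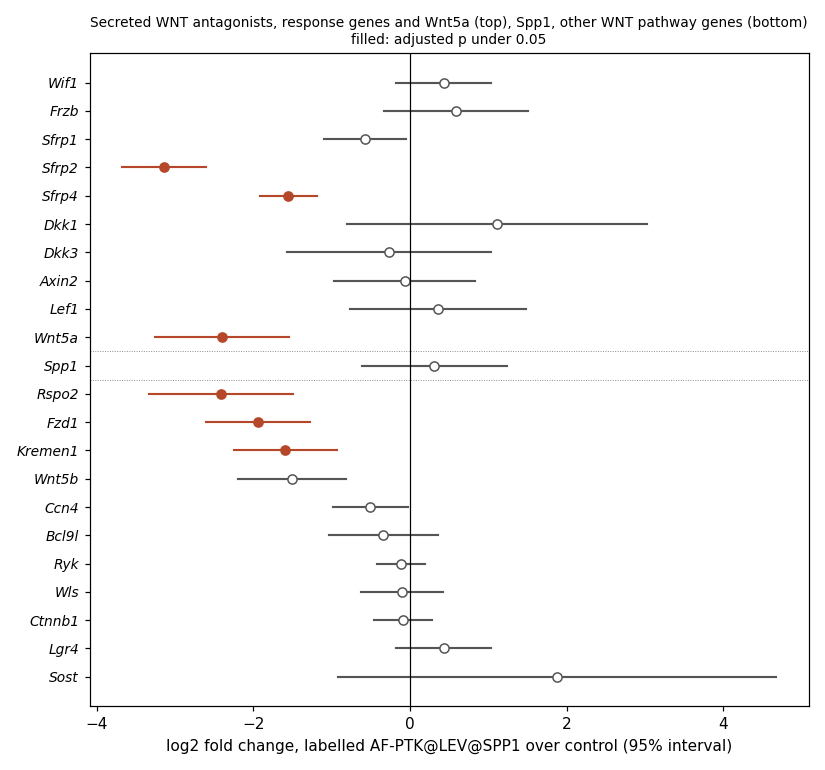
Log2 fold change between labelled and control libraries (horizontal axis, point with 95% interval) for the 10 genes (top), Spp1 and the other WNT pathway genes named (bottom), without Wnt7b, which had no counts in the labelled libraries. Filled points had an adjusted p under 0.05, among them Sfrp2 at -3.14, Sfrp4 at -1.55 and Wnt5a at -2.40.

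The spread within the control group differed between the 10 genes. Control replicate 1 and the control pair differed by more than 2-fold for 6 of the 10, namely Frzb, Dkk1, Dkk3, Axin2, Lef1 and Wnt5a, compared with 13.0% of the 15537 genes tested. Control replicate 1 was the higher sample for Dkk1 and Lef1 and the lower sample for the other 4. Within the labelled group, the highest over the lowest library was 1.15 to 1.86 for the 10 genes, with a median of 1.31, and the median over all genes was 1.34.

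Other genes of the pathway were counted from lists of ligands, antagonists, receptors and intracellular components. Of 82 listed genes, 81 were in the table and 68 were tested. Of these, edgeR called 4, Wnt7b, Kremen1, Rspo2 and Fzd1, all lower, or 5.88% beside the background of 3.70%. Wnt7b, without counts in the labelled libraries, passed the filter on low counts through the control libraries alone, so its direction was fixed by the filter. Without it 3 of 67 were called (4.48%), a share near the background. None of the 68 was called higher by edgeR. An unadjusted p under 0.05 was reached by 8 in the higher direction, Sostdc1 (described below) among them, and by 14 in the lower. Wnt7b and Wnt9b, the latter named after its values were seen, were among the 14. Wnt9b had 26, 51 and 50 counts in control and 2, 4 and 9 in the labelled libraries. It passed the filter on low counts through the control libraries alone, so its direction was fixed by the filter. Of the 68, DESeq2 called 5 higher and 13 lower, and limma-voom 1 and 4. Over all 15537 genes tested, 1926 and 2015 had such a p in the higher and lower direction. DESeq2 called 1132 of all genes higher and 1440 lower, and limma-voom 139 and 315. The split of the edgeR calls among the 68 by direction also depended on 1 sample. Without control replicate 1, which left a lone control sample, these calls were no longer all lower. The median log2 fold change of the 68 was -0.09, also with Wnt7b set at its bound, compared with -0.17 for the 10 genes and 0.05 for all genes tested. The medians of single lists ran from -0.36 for WNT secretion to 0.54 for the other antagonists. With the control pair kept as 2 samples, 4 of the 68 were called higher and 11 lower, beside 18.1% of all genes in that fit, and Sfrp2, Sfrp4 and Wnt5a were again the called genes among the 10.

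Of the ligands other than Wnt5a, 1 of 11 tested was called. Wnt7b, a ligand of the β-catenin branch, had 31, 21 and 22 counts in control and 0 in each labelled library. As a description, this is an at least 8.12-fold lower level against the floor of 3 counts in a library. Wnt5b, the close relative of Wnt5a and the ligand with the most counts in this list, had 32.6, 26.4 and 21.9 normalized CPM in control and 12.9, 9.70 and 7.40 in the labelled libraries. Its groups did not overlap, and its log2 fold change of -1.51 ± 0.27 SE just missed the threshold (adjusted p = 0.0525). It was called in 5 of 14 alternatives, DESeq2 and the control pair kept as 2 samples among them, over a range of adjusted p from 0.000148 to 0.163.

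Among 9 other antagonists and partners tested, edgeR called Kremen1, while 6 of the 9 had a positive log2 fold change and the median was 0.54. An unadjusted p under 0.05 was reached by 3 in the higher and 3 in the lower direction, and DESeq2 called 3 higher and 2 lower. For all 15537 genes tested these counts were 1926 and 2015, and 1132 and 1440. Sostdc1, named after its values were seen, was among the 3 higher by unadjusted p. It had 1, 2 and 0 counts in control and 10, 31 and 50 in the labelled libraries. It passed the filter on low counts through the labelled libraries alone, so its direction was fixed by the filter. Kremen1, the membrane receptor with which DKK1 acts, had 32.0, 51.6 and 48.9 normalized CPM in control and 14.9, 10.8 and 15.5 in the labelled libraries, with a log2 fold change of -1.59 ± 0.26 SE (adjusted p = 0.0444). All labelled libraries were below all control libraries, and limma-voom gave an adjusted p of 0.0549, within a range from 1.79e-05 to 0.176 over all alternatives. Dkk2, named after its values were seen, lay the other way without overlap, with 2.98, 0.964 and 1.22 normalized CPM in control and 12.6, 9.34 and 10.6 in the labelled libraries (log2 fold change 2.43 ± 0.47 SE, adjusted p = 0.0610). Draxin and Trabd2b, also named after their values were seen, were lower without overlap and not called. Their log2 fold changes were -2.50 ± 0.50 SE (adjusted p = 0.0638) and -0.77 ± 0.27 SE (adjusted p = 0.163). Sost, which encodes the osteocyte antagonist sclerostin, had 29.7, 1.86 and 1.34 normalized CPM in control and 58.8, 70.2 and 41.7 in the labelled libraries. Like Dkk1, Sost was high in control replicate 1 and low in the control pair. Its log2 fold change of 1.87 ± 1.11 SE was not called (adjusted p = 0.341), and it was 5.13 without control replicate 1 (adjusted p = 0.0361), over a range of adjusted p from 0.0361 to 0.507.

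Of 8 genes of the R-spondin system and 14 receptors tested, edgeR called Rspo2 and Fzd1. In these lists 0 and 2 genes had an unadjusted p under 0.05 in the higher direction, and 1 and 3 in the lower. DESeq2 called 0 and 1 higher, and 1 and 3 lower. Over all 15537 genes, 1926 and 2015 had such a p, and DESeq2 called 1132 and 1440. Fzd4, a receptor named after its values were seen, was higher without overlap (log2 fold change 0.87 ± 0.16 SE, adjusted p = 0.0531). With the 6 libraries kept its adjusted p was 0.00953. The receptor genes Ror2 and Fzd2, also named after their values were seen, were lower without overlap and not called. Their log2 fold changes were -1.41 ± 0.34 SE (adjusted p = 0.0891) and -1.17 ± 0.33 SE (adjusted p = 0.112). With the 6 libraries kept their adjusted p was 0.0247 and 0.0308. Rspo2, a secreted enhancer of WNT signalling, had 15.7, 25.7 and 24.4 normalized CPM in control and 3.58, 2.65 and 5.35 in the labelled libraries, with a log2 fold change of -2.41 ± 0.36 SE (adjusted p = 0.0397). Fzd1, a Frizzled receptor, had 27.4, 38.4 and 37.8 in control and 10.7, 6.51 and 8.48 in the labelled libraries, with a log2 fold change of -1.94 ± 0.26 SE (adjusted p = 0.0326). For both genes the groups were well apart, with control replicate 1 the lowest control library. Lgr4, an R-spondin receptor, had log2 fold change 0.43 ± 0.24 SE (adjusted p = 0.317), and the WNT-binding receptor Ryk had -0.12 ± 0.12 SE (adjusted p = 0.569). The calls of Wnt7b, Kremen1, Rspo2 and Fzd1 were lost when any labelled library, control replicate 1 or the control pair was left out, with adjusted p from 0.0522 to 0.214.

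In the 4 lists of WNT secretion, cytoplasmic signalling, nuclear effectors and other response genes, 0 of 31 tested genes was called by edgeR. An unadjusted p under 0.05 was reached by 2 genes in the higher and 4 in the lower direction, DESeq2 called 1 higher and 4 lower, and limma-voom called 0. The list of other response genes, with 12 tested, held 0 of the higher and 3 of the lower by unadjusted p. In that list DESeq2 called 0 higher and 2 lower, and 5 genes had a positive and 7 a negative log2 fold change. All 15537 genes tested gave 1926 and 2015 by unadjusted p, 1132 and 1440 by DESeq2, and 139 and 315 by limma-voom. The most counted gene of each list was not called. Wls, the carrier that brings WNT proteins to the cell surface, had -0.10 ± 0.21 SE (adjusted p = 0.785), and Ctnnb1, the gene of β-catenin, -0.09 ± 0.15 SE (adjusted p = 0.735). The coactivator gene Bcl9l had -0.34 ± 0.28 SE (adjusted p = 0.477), and the WNT-induced matrix gene Ccn4 -0.51 ± 0.19 SE (adjusted p = 0.185). Nkd2 of the response list, named after its values were seen, was lower without overlap and not called (-0.99 ± 0.21 SE, adjusted p = 0.0699).

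Summed markers of cell types did not overlap between the labels for 5 of 13 lists, beside 45.8% of single genes tested, and this count is no result about the lists. The 7 genes of the nucleus pulposus and notochord summed to 759, 326 and 320 normalized CPM in control and 4221, 1505 and 1786 in the labelled libraries, with Cd24 the most counted gene and Noto at 0 in all libraries. The 5 adipocyte genes, led by Adipoq, summed to 254, 42.1 and 39.5 in control and 530, 968 and 398 in the labelled libraries. Both sums were higher in the labelled libraries without overlap, and edgeR called 0 of the 6 and 0 of the 5 genes tested. An unadjusted p under 0.05 was reached by 4 and 3 of them, DESeq2 called 4 and 3, and limma-voom 0. In the same higher direction, 1926 of all 15537 genes tested had such a p, and DESeq2 called 1132 and limma-voom 139.

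The T cell and endothelial sums were lower in the labelled libraries without overlap, as Sfrp2, Sfrp4 and Wnt5a were, and the myeloid list was mixed. The 5 T cell genes, led by Cd8a, summed to 12.9, 15.2 and 14.3 in control and 5.87, 6.87 and 7.00 in the labelled libraries, and Cd8a was called lower. An unadjusted p under 0.05 in the lower direction was reached by 4 of the 5, and DESeq2 called 3 lower and limma-voom 1. In the lower direction, all 15537 genes tested held 2015 with such a p, 1440 called by DESeq2 and 315 by limma-voom. Cd247 of this list lay the other way, with 2.51, 2.06 and 1.53 normalized CPM in control and 2.76, 2.83 and 2.68 in the labelled libraries (log2 fold change 0.36, adjusted p = 0.471). The 3 endothelial genes, led by Pecam1, summed to 342, 448 and 430 in control and 252, 296 and 295 in the labelled libraries, with 0 of 3 called, 2 at an unadjusted p under 0.05, 1 by DESeq2 and 0 by limma-voom. Kdr of this list overlapped between the groups, with a log2 fold change of 0.028. The 5 myeloid genes, led by Lyz2, summed to 2854, 1698 and 1673 in control and 565, 2622 and 3197 in the labelled libraries, so these groups overlapped. Of these genes 3 had a negative and 2 a positive log2 fold change. Cd68 was the myeloid gene called lower, with 150, 112 and 116 normalized CPM in control and 28.5, 42.1 and 30.9 in the labelled libraries. Csf1r was also lower without overlap, with 261, 145 and 148 in control and 104, 111 and 101 in the labelled libraries. It was not called (log2 fold change -0.96, adjusted p = 0.102). In the myeloid list 0 genes had an unadjusted p under 0.05 in the higher and 2 in the lower direction, and DESeq2 called 0 and 2. S100a9 had 457, 84.9 and 78.3 in control and 107, 1059 and 1485 in the labelled libraries (log2 fold change 1.71, adjusted p = 0.432). Cd68, Csf1r, S100a9, Cd247 and Kdr were chosen for naming after their values were seen. The part of these cell types in the lower levels of Sfrp2, Sfrp4 and Wnt5a was not tested.

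The 6 annulus and tendon genes, led by Col1a1, summed to 34035, 48833 and 49186 in control and 68762, 49020 and 55977 in the labelled libraries. With the control pair as 1 sample this sum was higher in the labelled libraries without overlap, though labelled replicate 2 was at the level of the pair. Col1a1 made up most of the sum, 4 of the 6 genes had a positive and 2 a negative log2 fold change, and the groups overlapped for 4 of the 6. None of the 6 was called by edgeR or limma-voom, and 1 had an unadjusted p under 0.05, while DESeq2 called 1 higher. The sums of the remaining lists overlapped between the groups. The 8 bone genes, led by Ibsp, summed to 4833, 1859 and 1858 in control and 2299, 3266 and 1908 in the labelled libraries. Of these genes 2 had a positive and 6 a negative log2 fold change, and 0 were called. Ibsp was lower in the labelled libraries without overlap. Bglap, chosen for naming after its values were seen, had 624, 12.1 and 12.6 normalized CPM in control and 567, 872 and 757 in the labelled libraries. Control replicate 1 was thus above the control pair for the bone sum and Bglap, as it was for Dkk1, Lef1 and Sost. The part of bone in these values was not tested. The 6 muscle genes, led by Acta1, reached 10370 in labelled replicate 2 and lay at 941 to 2501 elsewhere. The 5 erythroid genes, led by Hba-a1, reached 20368 and 14005 in labelled replicates 2 and 3 and lay at 2372 to 3274 elsewhere. Summed levels over the libraries ran from 21332 to 42637 for 8 cartilage genes (Col2a1). Of these genes 4 had a positive and 4 a negative log2 fold change. The sum for 4 genes of fascia and synovial fibroblasts (Prg4) ran from 545 to 1410. Prg4 carried most of this last sum at a log2 fold change of -0.64, and the other 3 genes of the list had positive values. Among these Pi16, chosen for naming after its values were seen, had 38.9, 9.32 and 9.09 normalized CPM in control and 204, 120 and 264 in the labelled libraries. The groups did not overlap for Pi16 (log2 fold change 3.03, adjusted p = 0.0885), and its part in the values of the WNT genes was not tested. Summed levels ran from 36.7 to 146 for 8 B lineage genes (Ebf1) and from 10.8 to 16.7 for 3 genes of epidermis and hair follicle (Dsg3). All 8 B lineage genes had a positive log2 fold change, and edgeR called 0 of them. Of the 71 marker genes tested, edgeR called 2, Cd8a and Cd68, or 2.82% beside the background of 3.70%. An unadjusted p under 0.05 was reached by 11 of the 71 in the higher and 10 in the lower direction. DESeq2 called 12 of the 71 higher and 7 lower, and limma-voom 0 and 2. The counts over all 15537 genes tested were 1926 and 2015 by unadjusted p, 1132 and 1440 by DESeq2, and 139 and 315 by limma-voom.

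Promoter sequences were read for the 10 genes, and those of Sfrp2 and Wnt5a, called lower, are printed with that of the response gene Axin2. RefSeq promoters of rat build GRCr8, from 250 bases before to 50 after the gene start, were found for 7 of the 10 genes and not for Sfrp1, Sfrp4 and Dkk3. The core motif of TCF/LEF factors, CTTTGA, was searched on both strands. It occurred in 2 of the 7, with 2 matches each in Dkk1 and Axin2, compared with 16.1% of 33469 promoters of this length. The Sfrp2 and Wnt5a promoters held no match, which says only that these letters are absent from this window. Below, capitals mark the matches and each sequence runs 5′ to 3′ on the strand of its gene.
Sfrp2, GRCr8 chr2:171387286-171387585, plus strand: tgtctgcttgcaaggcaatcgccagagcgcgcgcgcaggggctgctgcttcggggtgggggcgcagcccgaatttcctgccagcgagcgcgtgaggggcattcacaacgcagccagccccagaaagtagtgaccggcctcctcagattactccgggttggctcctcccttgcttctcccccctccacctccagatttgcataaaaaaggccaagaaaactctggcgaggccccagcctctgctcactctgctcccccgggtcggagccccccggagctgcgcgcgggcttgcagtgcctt
Wnt5a, GRCr8 chr16:3703415-3703714, plus strand: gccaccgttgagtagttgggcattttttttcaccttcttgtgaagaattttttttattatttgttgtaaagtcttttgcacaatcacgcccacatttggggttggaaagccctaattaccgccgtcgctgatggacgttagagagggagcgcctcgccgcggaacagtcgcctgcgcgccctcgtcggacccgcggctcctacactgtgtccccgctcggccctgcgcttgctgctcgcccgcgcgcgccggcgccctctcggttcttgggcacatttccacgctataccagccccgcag
Axin2, GRCr8 chr10:94398535-94398834, plus strand: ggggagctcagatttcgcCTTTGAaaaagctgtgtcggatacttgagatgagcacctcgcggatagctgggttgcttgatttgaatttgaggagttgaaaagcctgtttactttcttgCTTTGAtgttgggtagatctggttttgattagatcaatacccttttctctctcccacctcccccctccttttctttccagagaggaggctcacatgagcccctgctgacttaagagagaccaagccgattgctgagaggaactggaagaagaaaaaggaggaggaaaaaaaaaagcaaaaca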

How the data were processed

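RNA of 6 disc libraries was analysed from a table of counts, in which the authors deposited the whole number of reads per Ensembl rat gene and library without normalization. The submitters' processing notes name FastQC, Trimmomatic, HISAT2, featureCounts and DESeq2 and the mouse build mm10, while the gene identifiers are those of rat. The methods name no aligner, and the use of strand is not given in the sources used here. Column names were matched to the sample records by group and number.

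The fit used edgeR 4.0.16 and R 4.3.3 (trimmed mean of M-values, filterByExpr at its minimum count of 10, quasi-likelihood test, Benjamini-Hochberg adjustment over all genes tested). The counts of control replicates 2 and 3 were summed, because their variance was under 2 times counting noise while that of the other pairs within a group was over 10 times. Normalized CPM used the total counts of each library with factors from the 6 libraries, and means took the pair as 1 sample. The 95% intervals came from the same fit. Each log2 fold change is labelled AF-PTK@LEV@SPP1 over control. Alternatives were the 6 libraries kept, also with the replicate number as a block, DESeq2 1.42.0, limma-voom (limma 3.58.1), other normalizations, no filter, an added fold threshold, and each sample left out. The code of these steps was run on simulated counts, which does not test the calls in these data.

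The genes, pathway lists and marker lists were chosen with earlier results of these data known. The text names the 10 genes, Spp1, the called genes of the pathway lists, the most counted gene of each list, and defining markers at 0, and further genes that are said to be chosen after their values were seen. Names were matched directly to the table. Motifs were searched in RefSeq promoters of GRCr8.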

Additional observations from a re-analysis of the deposited data

How the results depend on the processing

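Sfrp2, Sfrp4 and Wnt5a were the 3 genes called among the 10 under all 7 alternatives that kept every sample (6 libraries kept, the replicate block, DESeq2, limma-voom, 2 other normalizations and no filter), and also with an absolute log2 fold change above 1 required, which left 452 of all genes. Leaving out single samples gave 0 to 3 of the 10 called, 0 to 566 of all genes and 0 to 5 of the other WNT genes, against 575 and 4 with all samples. Without control replicate 1 the calls of other WNT genes were no longer all lower. Where 0 genes were called, without labelled replicate 2 or 3, edgeR gave 3109 and 2699 genes an unadjusted p under 0.05, and no other tool was run. A lone control sample, left without the pair or without control replicate 1, was assumed to vary like the labelled group. All genes called numbered 2727 with the 6 libraries kept and 2572 with DESeq2. Other WNT genes called numbered 15 with the 6 libraries kept, 18 with DESeq2 and 7 without a filter (4 higher and 11 lower, 5 and 13, and 1 and 6), and the cause was not tested. Kept as 6 libraries with a replicate block, the fit called 741 genes, 3 of the 10 and 7 other WNT genes (3 higher and 4 lower), with an adjusted p of 0.0923 for Wnt7b and 0.0530 for Kremen1. The replicate numbers were not shown to pair the animals, since deviations of same-numbered libraries correlated at -0.32, -0.27 and -0.08. When samples were left out, log2 fold changes that turned sign ran from -0.86 to 0.74 for Dkk3, -0.53 to 0.64 for Axin2, -0.21 to 1.27 for Lef1, -0.066 to 0.81 for Spp1, -0.71 to 0.14 for Bcl9l, -0.32 to 0.027 for Wls and -0.20 to 0.022 for Ctnnb1. The turn came without the control pair for 6 of these genes, for Axin2 also without control replicate 2, and for Ctnnb1 without control replicate 1. None of them was called. With counts as low as 31 for Dkk1, counting error adds to the spread between samples.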
